A study of Mus musculus with 144 samples.

Results

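On a microRNA (miRNA) array hybridized with mouse blood RNA, 100 probes that have no row in the deposited mouse value table gave some of the brightest spots. These probes were chosen by their measured brightness. Of 3435 probe names on the array, 1262 have a row in the mouse table. Of the 2166 others with a value, after the empty spots, the control probes and 4 named probes were left out, the 100 with the highest median background-subtracted intensity over 144 arrays were taken. Because brightness selected them, their levels are given as a description and were not tested. The study's own methods describe a multi-species array, so a probe outside the mouse table may have been designed for another species, but no miRNA name, species or sequence was used here for any of them. They are therefore called probes outside the mouse table, no sequence is printed, and sequence identity with a mouse miRNA was not analysed here.

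Male C57BL/J6 mice, 7 weeks old at the start, were exposed by aspiration to 1, 10, 40 or 80 µg of multi-walled carbon nanotubes (MWCNT), to 120 µg of crocidolite asbestos, or to dispersion medium alone (DM, the negative control). Blood was taken 1, 6 or 12 months after exposure. There were 8 mice in each of 18 groups and 1 array per mouse, which gives 144 arrays on 38 slides scanned on 7 days. As the probes are not paired with miRNA names here, the labelled tissue was not checked against blood markers.

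A miRNA is a short RNA that lowers the output of messenger RNAs it pairs with, and many miRNAs keep the same or nearly the same sequence between mammals. On a spotted array an immobilized probe captures whatever labelled RNA pairs with it well enough, so a probe for a miRNA of one species can light up with the matching or a closely related RNA of another, which is called cross-hybridization. In blood, miRNAs come from red cells, white cells, platelets and plasma, and in such a bulk sample fewer cells of a type and less RNA per cell cannot be told apart.

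The 10 brightest of the 100 probes were ORB_1112468, ORB_1112131, ORB_1112099, ORB_1112191, ORB_0510351, ORB_0511225, IDT1008_1587, ORB_0510362, IDT0908_1102 and ORB_0511159. Their median intensities lay between 65467 and 65471 units, where the spots had reached the highest value the scanner records before the background was subtracted (the scanner's ceiling). Their order among each other therefore has no meaning. At the edge of the list, the probes ranked 99 and 100 (ORB_0511393 and IDT1008_1583) had medians of 4573 and 4499 units, and the first probes left out (ORB_0510355 and ORB_0511301) had 4454 and 4417 units. The list has no gap at this edge.

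All 100 probes exceeded the detection threshold on all 144 arrays, and all 100 also exceeded 2 times the threshold on every array. For each array it was set at 5 SD above the mean of the empty spots, after a trim of 10%, and it ranged from 13.0 to 62.6 units. Among the other 2066 probes outside the mouse table, 357 (17.3%) were above the threshold on every array, and among the 1262 mouse-table probes 411 (32.6%) were. In the mouse table, 101 probes were as bright as the 100 probes or brighter, that is at or above 4499 units. The 100 probes took a median of 43.4% of the background-subtracted signal summed over these sets on an array (38.8 to 49.1%), against 4.81% for the other probes outside the table and 51.7% for the mouse-table probes. Each probe counted as the mean of its spots. Empty spots, control probes and the named probes left out were not in the sum. By month the median share of the 100 probes was 44.5% in month 1, 42.7% in month 6 and 43.3% in month 12, with overlapping ranges. It counts light and not molecules, and a spot at the ceiling counts for no more than the ceiling.

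The spread between the spots of one array was small for the 100 probes. Each probe was spotted 3 times, and the median SD of the log2 intensity over those spots was 0.085. It was 0.333 for the other probes outside the table and 0.282 for the mouse-table probes. Those sets were far dimmer, with median intensities of 23.7 and 33.3 units against 22438 for the 100 probes. Spots at the ceiling hardly differ, and 17 of the 100 probes had all spots there on more than 72 arrays. The comparison is therefore not matched for brightness, by which the 100 probes were chosen. Spots of 48 of the 100 probes reached the scanner's ceiling on some array, 20 of them on more than 72 arrays. Changes in the measured intensity of those probes are compressed. The remaining 52 never reached it, and results are given for them separately. A spot at or above 4499 units lay directly beside 20 of the 100 probes (20.0%), against 447 of 2066 (21.6%) of the other probes outside the table.

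The bright probes were not spread evenly over the name types on the array, although what the name parts stand for is not given in the sources used here. All 10 probes whose name starts with IDT were on the list. So were 5 of the 8 probes outside the table whose name ends in _3. By contrast, 10 of 439 probes named with digits (2.28%), 12 of 412 names starting with ORB_1210 (2.91%), 31 of 510 starting with ORB_0511 (6.08%), 20 of 337 starting with ORB_1112 (5.93%) and 9 of 193 starting with ORB_0510 (4.66%) were. These shares follow from the choice by brightness and were not tested.

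Levels below are log2 intensities after normexp background correction with an offset of 50, averaged over the 3 spots and quantile scaled between arrays, so they compare one probe between arrays and not one probe with another. Scaling can also widen differences in a probe near the ceiling. ORB_1112252 ran from 63630 to 65470 units, but from 15.27 to 16.00 on this scale. Across the 144 arrays the median SD of the 100 probes was 0.29. The group of an array accounted for a median of 6.67% of their variance, the slide for 12.4% and the scan day for 4.24% (adjusted R2, a description). Most of the variance of a typical probe was thus between arrays of one group.

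The 6 most variable of the 100 probes were picked out after their values were seen. ORB_1210051 varied most, from 8.59 over a median of 15.09 to 16.00, which in background-subtracted intensity was 339 to 65473 units. Its 3 spots agreed within an array, with a median SD of 0.0996. Scan day accounted for 37.4% of its variance, slide for 44.4% and month for 2.39%. By scan day its median was 13.64 on the third and 13.10 on the fifth of the 7 days, and between 14.93 and 15.99 on the others. On 25 arrays, from 5 scan days and 13 groups, it was more than 2 log2 units below its own median. The part of the scan day in this spread was not tested.

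The variable probes IDT1008_1575, ORB_1112448, IDT1008_1579 and 3083, fell low on overlapping sets of arrays. IDT1008_1575 was more than 2 log2 units below its median of 12.86 on 15 arrays. On the 11 arrays where ORB_1112448 was that low, IDT1008_1575 was low on all 11, and the 8 low arrays of 3083 were low for both. These arrays came from several slides, months and groups: the 15 arrays of IDT1008_1575 lay on 12 slides, 6 scan days and 11 groups, with 6 in month 1, 6 in month 6 and 3 in month 12. The sixth probe, 1947, had 4 arrays more than 2 log2 units above its median of 12.54 and none that far below.

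To see which mouse-table probes the bright probes followed, each was correlated over the 144 arrays with each of the 742 mouse-table probes that passed the filter, which asked for a value above the threshold on every array of at least 1 group. The partner of highest Pearson r was taken. Since it was picked by its r, no p is given, and the arrays share slides, scan days and scaling. The best r ranged from 0.32 to 0.98 with a median of 0.69, and the median Spearman rho with the same partners was 0.62. For mouse-table probes with each other the median of the best r was also 0.69, over 742 probes, and for the 101 mouse-table probes of like brightness it was 0.80. Of the 100 probes, 11 reached an r of 0.9 or more, as did 87 of the 742 mouse-table probes. The 100 probes were shared out over 59 partners, with at most 8 on one.

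The closest partners were these. IDT0908_1102 followed mouse-table probe 3135 with an r of 0.98, but the Spearman rho was 0.17. IDT0908_1102 had all 3 spots at the ceiling on 125 of 144 arrays, and the mouse-table probe had a median intensity of 65470 units. On the 9 arrays where probe 3135 was more than 1 log2 unit below its median, IDT0908_1102 was that low on 8, and without these 9 arrays r was 0.55. IDT1008_1587 followed the same mouse-table probe with an r of 0.95 and a rho of 0.37, and without those arrays r was 0.16. The correlation of both rests on the arrays where they were dim.

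The other 3 of the 5 closest pairs kept most of their r without the dim arrays. Probe 3083, never at the ceiling, followed mouse-table probe 1847 with an r of 0.97 and a rho of 0.89, and r was 0.88 without the 10 arrays where both were low. Its SD was 0.77, while the difference between the pair had an SD of 0.20. ORB_1112107, never at the ceiling either, followed ORB_1112041 with an r of 0.97 and a rho of 0.96, with an SD of 0.47 for the probe and 0.12 for the difference. ORB_0510173, at the ceiling on 17 arrays, followed 1885 with an r of 0.95 and a rho of 0.95, and r was 0.92 without the partner's 18 low arrays. With the 2 arrays farthest from the partner's median left out, these 3 pairs kept r at 0.96, 0.97 and 0.95. Within single months their r was between 0.91 and 0.99, and for deviations from the group means it was 0.97, 0.97 and 0.95. Of the 11 probes at 0.9 or more, 4 stayed there after the partner's low arrays were left out. ORB_1112448 and IDT1008_1575 followed probe 1443 with r of 0.93 and 0.92, and without its 20 low arrays r was 0.55 and 0.56.

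The lowest best r belonged mostly to probes at the ceiling. They were 0.32 for ORB_1112191, 0.36 for ORB_1210467, 0.38 for ORB_0510362 and 0.44 for ORB_0511225, which had a spot at the ceiling on 120 or more arrays and an SD of at most 0.093. The fifth, ORB_0510283, was never at the ceiling and reached 0.46 with probe 1850. The median best r was 0.74 for the 52 probes never at the ceiling and 0.61 for the 48 others. Not every probe at the ceiling had a low best r. ORB_1112252, with a spot there on 144 arrays, reached 0.83 with probe 2740, but 0.17 with it before scaling. IDT1008_1523, with a spot there on 141 arrays, reached 0.83 with probe 1313, but 0.05 with it before scaling. Why r differed between these probes was not tested. Before scaling the median best r of the 100 probes was 0.90, with 57 at 0.9 or more, and arrays then also differed in overall brightness.

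Among themselves the 100 probes had a median r of 0.03 over 4950 pairs (-0.73 to 0.96), and 75.1% of the pairs lay within 0.3 of 0. Those at 0.9 or more were 6 pairs: IDT1008_1587 with IDT0908_1102, ORB_1112465 with ORB_0511011, ORB_0510173 with ORB_0511011, ORB_0511176 with ORB_0511178, IDT0908_1102 with 3083, and ORB_1112448 with IDT1008_1575. The 10 probes named IDT had a median r of 0.39 with each other over 45 pairs (-0.32 to 0.96).

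Months were compared over all 6 exposures in limma, as contrasts between the means of 18 groups, and p-values were adjusted by Benjamini-Hochberg over 1670 probes that passed the filter. All 100 bright probes were among those tested. A probe was called at p under 0.05, adjusted p under 0.10 and a fold of 1.5 or more. By this rule 0 of the 100 probes were called in month 6 against month 1, where 0.299% of all tested probes were. For month 12 against month 1, 1 of the 100 was called, against 1.02% of all, and for month 12 against month 6, 0 were, against 0.18% of all. At an unadjusted p under 0.05 the numbers were 68, 64 and 21 of the 100, against 40.4%, 36.2% and 27.5% of all tested probes, so the last share was below that of all probes.

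The called probe was ORB_1210051, the most variable one. It had 8.59, 15.47 and 16.00 (lowest, median and highest of 48 arrays) in month 12, against 9.65, 14.76 and 16.00 in month 1. The ranges of the months overlap almost completely. A spot of it was at the ceiling on 58 of 144 arrays, and all 3 spots were on 41, so differences in its measured intensity are compressed. The difference was 0.78 ± 0.34 (log2, SE; adjusted p = 0.0769 in limma). The call was lost under 7 other settings, with an adjusted p of 0.328 without the third scan day and 0.664 without the fourth. Within single scan days the difference was 1.84, 0.64, 1.16, 0.21 and -1.08, the last with 1 array of month 1. In DM mice alone it was -0.32 ± 0.83.

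Without the fold limit, a rule chosen after the data were seen, small shifts were frequent, and more of them were downward. In month 6 against month 1, 52 of the 100 probes were lower and 15 higher at an adjusted p under 0.10 (limma), while 20.5% of all tested probes were lower and 16.5% higher. The 52 were lower by a median of 0.20 log2 units, a fold of 1.15, and none passed 1.5-fold. The median difference over the 100 probes was -0.10, and over all tested probes it was 0.00. For the 52 probes never at the ceiling, the median was -0.13, with 29 lower and 8 higher. The 101 mouse-table probes of like brightness had a median of 0.07, with 14 lower and 31 higher. By median intensity, the 100 probes and these 101 fill the brightest ranks. Quantile scaling gives every array the same values at those ranks. A fall in either set thus tends to go with a rise in the other, so their opposite signs are not independent.

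Month 12 against month 1 gave 44 lower and 13 higher of the 100, against 18.6% lower and 14.6% higher of all tested probes. The median over the 100 was again -0.10, and it was -0.13 for the 52 never at the ceiling and 0.04 for the bright mouse-table probes. Here too the scaling ties the bright mouse-table probes to the 100. Month 12 against month 6 gave 10 lower and 7 higher, against 9.7% lower and 10.4% higher of all, with a median of 0.01. The 3 comparisons share arrays and are not independent of each other.

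The split of lower to higher depended on the scaling. In month 6 against month 1 it was 55 to 30 with the scaling of the study's methods, 58 to 27 with normexp and a trimmed mean, and 64 to 4 with quantiles set by the mouse-table probes. For month 12 against month 1 it was 51 to 6, 52 to 6 and 54 to 8, and for month 12 against month 6 it was 26 to 5, 25 to 10 and 9 to 7. The shares of all tested probes lower and higher under these scalings are not given here. The trimmed-mean scalings moved the median of all probes in month 6 against month 1 to 0.20 and 0.22. Relative to it the 100 probes were at -0.34 and -0.38, and with quantiles from the mouse-table probes at -0.19, so their median lay below that of all probes each time. In month 12 against month 6 the trimmed-mean scalings put the median of all probes at -0.16 and -0.18, and the 100 probes at 0.11 and 0.16 above it. In DM mice they put the median of all probes at 0.29 and 0.35 in month 6 against month 1, and at -0.30 and -0.28 in month 12 against month 6.

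The mouse-table probes were also slightly dimmer in month 6 by their median, with wide overlap between months. Before scaling their mean log2 intensity had a median of 7.71 in month 1 (7.36 to 8.18), 7.60 in month 6 (7.22 to 7.88) and 7.66 in month 12 (7.44 to 8.13). This difference was not tested. With this brightness as a term in the fit, 54 of the 100 probes were lower and 9 higher in month 6 against month 1. With the scan day as a term, 52 were lower and 12 higher. Of the 52 lower probes, 33 lay below 0 on every one of 5 scan days with arrays from both months. The 52 were picked over these same arrays, so agreement between days follows in part from the choice. Scan day 3 had only 2 arrays of month 6. The same limit applies to the scan-day values of the single probes picked below. Month 12 against month 1 gave 34 lower and 11 higher with the scan day as a term, and 23 of its 44 lower probes were lower on each of 5 days. Those 44 were likewise picked over the same arrays, and scan day 7 had 1 array of month 1. With the scan day as a term, 1 probe lower and 1 higher were left in month 12 against month 6. The shares of all tested probes in fits with these terms are not given here.

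The probe with the smallest p in month 6 against month 1 was ORB_1210129, which never reached the ceiling. It had 12.08, 12.34 and 12.92 (lowest, median and highest of 48 arrays) in month 6, against 12.37, 12.73 and 13.15 in month 1. The groups overlap, but the month 6 median lay below the lowest month 1 array. The difference was -0.35 ± 0.04 (log2, SE; adjusted p = 4.92e-12 in limma). It was below 0 within each of 5 scan days, from -0.46 to -0.21. In month 12 the probe was at 11.67, 12.26 and 12.72, and the difference from month 1 was -0.47 ± 0.04 (adjusted p = 2.66e-19 in limma).

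The second, ORB_1210466, never at the ceiling, had 12.62, 13.03 and 13.30 in month 6, against 12.96, 13.28 and 13.49 in month 1. The difference was -0.27 ± 0.04 (adjusted p = 1.55e-09 in limma), between -0.35 and -0.12 within the 5 scan days. Its ranges also overlapped between months.

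ORB_0511364, never at the ceiling and described here after its values were seen, was lower at both later times. It had 12.00, 12.47 and 12.98 in month 1, 11.41, 12.12 and 12.98 in month 6, and 11.03, 11.97 and 12.46 in month 12 (lowest, median and highest of 48 arrays). The month 12 median lay below every month 1 array, while the ranges overlap. The difference in month 12 against month 1 was -0.50 ± 0.05 (adjusted p = 8.85e-15 in limma), and it ran from -0.64 to -0.41 within 5 scan days. In DM mice alone it was -0.51 ± 0.13 (adjusted p = 0.00665).

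The probes of smallest p in month 12 against month 6 were ORB_0510262 and ORB_1210123. ORB_0510262, never at the ceiling, had 13.75, 14.28 and 15.08 in month 12, against 13.36, 14.09 and 14.70 in month 6. The ranges overlap over most of their length. The difference was 0.21 ± 0.05 (adjusted p = 0.00489 in limma). It was at most 0.03 within each of the 3 scan days shared by both months, and the adjusted p was 0.171 with the scan day as a term. Against month 1 the probe was higher in month 12 by 0.33 ± 0.05 (adjusted p = 5.14e-07), between 0.18 and 0.46 within each of 5 scan days. ORB_1210123 had a spot at the ceiling on 106 of 144 arrays, with 15.72, 16.00 and 16.00 in month 12, against 15.47, 15.91 and 16.00 in month 6. Its difference of 0.08 ± 0.02 (adjusted p = 0.0054) turned to -0.16 and -0.13 with the trimmed-mean scalings, where the median of all probes lay at -0.16 and -0.18.

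Over all 6 exposures the median difference of the 10 probes named IDT was 0.20 in month 6 against month 1, with 0 lower and 4 higher, and 0.18 in month 12 against month 1, with 0 lower and 2 higher. The other probes of these 10 did not pass. In DM mice alone the median was -0.02 and -0.01. For IDT1008_1575, one of the variable probes above, the month 12 difference from month 1 was 0.78 ± 0.28 in exposed mice (adjusted p = 0.0290 in limma) and -0.87 ± 0.63 in DM mice (adjusted p = 0.726). The 10 probes named with digits had a median of 0.10 in month 6 against month 1, with 1 lower and 4 higher, and of 0.01 in DM mice. The 31 probes starting with ORB_0511 had a median of -0.17 in month 6 against month 1, with 25 lower and 1 higher, and of -0.11 in DM mice. Over all 6 exposures, 20.5% of all tested probes were lower and 16.5% higher in month 6 against month 1, at an adjusted p under 0.10 (limma). For month 12 against month 1 the shares were 18.6% and 14.6%. Differences between these name types, and between exposed and DM mice in them, were not tested.

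In mice without particles, the 8 DM mice of each month gave the same comparison with fewer arrays. By the rule with the fold limit, 0 of the 100 probes were called in month 6 against month 1, in month 12 against month 1 or in month 12 against month 6, against 1.62%, 1.56% and 0.12% of all tested probes. At an unadjusted p under 0.05 there were 17, 18 and 3 of the 100, against 21.5%, 12.3% and 12.3% of all tested probes. Without the fold limit, 4 probes were lower and 0 higher in month 6 against month 1, against 3.23% and 5.09% of all. For month 12 against month 1, 8 were lower and 0 higher, against 2.1% and 2.75% of all. For month 12 against month 6 there were 0, against 0.419% lower and 0.419% higher. The median SE of a difference was 0.13 for the 100 probes in DM mice and 0.05 over all exposures. With the scaling of the methods the first split was 17 to 11 and the third 6 to 0, and with normexp and a trimmed mean the first was 35 to 10. The shares of all tested probes under these scalings are not given here.

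ORB_1210335 had the smallest p in month 6 against month 1 in DM mice. It had 11.75, 11.95 and 12.21 (lowest, median and highest of 8) in month 6, against 12.14, 12.33 and 12.60 in month 1. The groups overlap only at the edge. The difference was -0.41 ± 0.10 (adjusted p = 0.0240 in limma, and 0.112 without the 2 dimmest DM arrays of month 6).

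ORB_1210466 came next in that comparison, with 12.78, 12.99 and 13.23 in month 6, against 13.02, 13.30 and 13.49 in month 1. The difference was -0.28 ± 0.09 (adjusted p = 0.0490, 0.112 without the same 2 arrays and 0.138 with the plain test of each group pair that the methods name). In month 12 it had 12.35, 12.99 and 13.15, and its difference from month 1 was -0.39 ± 0.09 (adjusted p = 0.00194). ORB_1210129 had 11.67, 12.34 and 12.64 in month 12, against 12.42, 12.77 and 13.15 in month 1, a difference of -0.45 ± 0.10 (adjusted p = 0.00155). With that plain test the month 12 differences had an adjusted p of 0.102 for ORB_1210466 and 0.146 for ORB_1210129.

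Between months 12 and 6 in DM mice the smallest p belonged to ORB_0511159 and ORB_0511364, neither past the threshold. ORB_0511364 had 11.03, 12.03 and 12.21 in month 12, against 12.01, 12.18 and 12.42 in month 6, with a difference of -0.27 ± 0.13 (adjusted p = 0.349). ORB_0511159 had a spot at the ceiling on 116 of 144 arrays, and its 8 arrays had 15.92, 16.00 and 16.00 in month 12, against 15.64, 15.91 and 16.00 in month 6 (0.10 ± 0.04, adjusted p = 0.191). The measured intensity of a probe held at the ceiling shows only part of any change. Its scaled level also depends on its rank among the other spots there.

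Exposed mice and DM mice of a month are different animals, so the month shifts can be read in one and looked at in the other. In the 5 exposed groups alone, 48 of the 100 probes were lower in month 6 against month 1 at an adjusted p under 0.10, by a median of 0.22 log2 units, and 12 were higher, against 17.8% and 12.6% of all tested probes. In DM mice 41 of these 48 were also below 0, with a median of -0.15, where 72 of all 100 bright probes were below 0. Of the 12 that were higher in exposed mice, 8 were above 0 in DM mice, with a median of 0.02. For month 12 against month 1, 41 were lower and 16 higher in exposed mice, against 17.3% and 12.6% of all tested probes. In DM mice 37 of the 41 were below 0, where 67 of all 100 were, and 8 of the 16 were above 0. By the rule with the fold limit, 3 of the 100 were called in exposed mice in month 12 against month 1, against 1.38% of all: ORB_1210051, IDT1008_1575 and ORB_1112448, all among the most variable probes. The arrays share slides and scan days between exposed and DM mice.

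Each exposure was set against the DM mice of its month in 15 comparisons. Of the 100 probes 0 were called in any of them, and of all tested probes 0.18% were called for 80 µg MWCNT in month 6 and 0% in the 14 other comparisons. The smallest adjusted p of a bright probe was 0.143 in limma, for ORB_1210123 with 80 µg MWCNT in month 6 (-0.15 ± 0.05). The smallest unadjusted p belonged to ORB_0510364 with crocidolite in month 12 (-0.47 ± 0.14, adjusted p = 0.351). At an unadjusted p under 0.05 between 1 and 11 of the 100 probes passed per comparison, 4.13% of all such tests, against 6.57% over all tested probes. The median difference over the 100 probes stayed between -0.03 and 0.03. Single differences ran from -1.01 to 1.61, and 48 of these tests had a fold of 1.5 or more without passing. The median SE was 0.13, and a 95% interval of a typical probe reached about 0.27 log2 units to either side. With the fold limit of the rule, a change under 1.5-fold could not be called at all.

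Along the MWCNT dose (DM, 1, 10, 40 and 80 µg, on the scale of log2 of dose plus 1) 0 of the 100 probes passed in months 1, 6 and 12, against 0%, 0.479% and 0.12% of all tested probes. At an unadjusted p under 0.05 there were 10, 13 and 6 of the 100, against 7.54%, 17.3% and 5.45% of all tested probes. The smallest adjusted p in these months were 0.607, 0.158 and 0.681. The F test of exposure by month passed for 0 of the 100 and 0% of all, with 1 of the 100 and 3.95% of all at an unadjusted p under 0.05. A p that misses the threshold does not show that exposures acted alike.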

How the data were processed

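The probes and the comparisons were chosen with earlier results of these data known. The authors labelled low-molecular-weight RNA of blood with 1 dye, hybridized it to spotted arrays and extracted the scans with GenePix. The deposited scanner values are median foreground and background intensity per spot, not normalized. The authors also deposited log2 values of 1262 mouse probes, subtracted and scaled by a trimmed mean, and their probe names defined the mouse table. Each of the 144 columns correlated best with its own array's scanner values (r of 0.9987 or more), so probes were not centred, and column medians ran from 4.46 to 6.97.

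Here spots flagged at -75 or below were left out. Background was corrected by normexp (offset 50, limma 3.58.1, R 4.3.3), and log2 intensities of 3 spots were averaged and quantile scaled over 3428 probes. Groups came from the labels, and no arrays had identical values. Of these probes 1670 were above threshold on every array of at least 1 group, and 742 of them are in the mouse table. Named probes were the 10 brightest, the list's edge, the 5 highest and 5 lowest best r, and per month comparison up to 2 called probes each way or the 2 of smallest p. The number of arrays limits the precision. A repeat scan at another gain was not used, and 4 arrays whose scans are named as re-dipped were kept. Alternatives changed the scaling, filter, scan day, slide, brightness and arrays used.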

Additional observations from a re-analysis of the deposited data

Results flagged for a closer look

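Among the bright probes named in the comparisons of DM mice, 15 sets of 8 arrays were checked for an array far from the others. Chance marks about 1 set in 20 where sets are independent and values roughly normal. These sets share arrays, and ORB_0511159 is capped by the ceiling, so that rate need not hold here. In 4 sets the gap below the other arrays took 0.558 or more of the group's range, past Dixon's 95% limit for 8 arrays. They were ORB_0511159 in month 6 (15.64 against a group median of 15.91) and in month 12 (15.92 against 16.00), both near the scanner's ceiling, ORB_0511364 in month 12 (11.03 against 12.03) and ORB_1210129 in month 12 (11.67 against 12.34). These arrays were kept in the values of the report. The low array of ORB_0511364 and of ORB_1210129 in month 12 was the same, DM replicate 2, so these sets are not separate. Before scaling its mouse-table probes had a mean log2 intensity of 8.13, the highest of month 12, where the median was 7.66. Without replicate 2 of month 12, the difference of ORB_1210129 in month 12 against month 1 was -0.36 (adjusted p = 0.0259 in limma). That of ORB_0511364 in month 12 against month 6 was -0.15 (adjusted p = 0.636 in limma). The cause was not tested.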

How the results depend on the processing

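The list kept 99 of its 100 probes when the mean over arrays replaced the median, and all 100 with normexp. Probes called over the 3 month comparisons numbered 1. The number was 0 with the scaling of the methods, with normexp and a trimmed mean, with no filter, with spots at the ceiling left out (chosen after seeing the data) and without scan day 3. It was 2 without the re-dipped arrays (chosen after seeing the data) and without scan day 2, 5 or 7, 5 without scan day 1, 6 without scan day 6 and 3 in exposed mice alone. In DM mice 0 were called, against 7 with the scaling of the methods, 5 with normexp and a trimmed mean, 4 with quantiles from the mouse-table probes, 2 with the scan day as a term, and 1 with the array brightness as a term or without the re-dipped arrays. Leaving out 1 DM array gave 0 to 2, with 1 or 2 without replicate 1, 5 or 6 of month 6 or replicate 4, 5 or 7 of month 1. Over the exposures 2 were called with normexp and a trimmed mean. The shares of all tested probes called under these other settings are not given here, so the counts describe the 100 probes alone. The median best r was 0.90 before scaling.

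Without the fold limit, higher probes in month 6 against month 1 numbered 30, 27 and 4 with the scaling of the methods, normexp with a trimmed mean, and quantiles from the mouse-table probes, 9 with brightness as a term and 9 without scan day 3. Higher probes in month 12 against month 1 numbered 6, 6 and 8 with those scalings, 8 with no filter and 8 without scan day 4. In month 12 against month 6, lower probes numbered 26 and 25 with the trimmed-mean scalings, 6 with slide as a random block, 1 with scan day and 2 with brightness as a term, and 5, 2 and 6 without scan day 1, 4 and 5. Higher ones numbered 4 with no filter, 3 with the slide block, 1 with scan day, 4 with brightness, and 4 without scan day 2 or 3. Over the 3 DM comparisons 12 passed, against 40 and 54 with the trimmed-mean scalings, 6 with no filter and 4 with the plain test of 2 groups that the methods name. Leaving out 1 DM array gave 6 to 15, with 6 without replicate 6 of month 1 and 7 without replicate 2 of month 12. ORB_1210123 in month 12 against month 6 turned to -0.16 and -0.13 with the trimmed-mean scalings, and ORB_0511159 in DM mice to -0.14 and -0.087. Of the values of single named probes over the alternatives, 315 kept direction and side of the threshold, 16 lost the threshold, 1 passed it and 4 reversed. The shares of all tested probes passing under these settings are not given here. Causes were not tested.

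The leaving out of spots with saturated pixels, as planned, was not run, since the files used hold no such column. No paired analysis was possible because each array came from a different mouse. The labels give no replicate numbers, and the numbers that name DM arrays above follow the order in which the samples are listed. Spots at the ceiling limit what 48 of the 100 probes can show.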
